A study of Mus musculus with 19 samples.

Results

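The loci described here held spliced transcript models and lay between the Ensembl genes listed with the data. They are the de novo loci of primary somatosensory cortex (S1) with at least 1 model of 2 or more exons, with a span that overlapped no listed Ensembl gene, and with an FPKM above 0 in all 7 libraries. FPKM is the number of sequenced fragments per kilobase of model, scaled to the mapped fragments of the library. Of 408323 de novo loci, 20328 were spliced, 1866 of these lay between listed genes, and 815 were also above 0 in every library. The loci were thus chosen by model structure, by position and by measured FPKM, so their number and their detection are descriptions and carry no test. A locus listed at exactly 0 in any library could not enter, which bears on every layer pattern below.

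The study dissected S1 of male C57BL/6 mice (C57BL/6J in the methods) aged 56 days, without any genetic change or treatment, into 6 adjoining segments from the surface to the white matter and sequenced polyadenylated RNA of each. Segment A held mostly layers 1–3, B mostly layer 4, C and D mostly layer 5, E mostly layer 6 and F mostly layer 6b. Libraries A, C, D, E and F each pooled RNA of 8 mice, while segment B was sequenced as B1 and as B2, pools of 4 littermates from separate litters. All segments came from the same 8 mice, so the libraries share animals and are not independent samples, although the trend test below treats them as such. A further 12 samples, from dorsal and lateral areas, were not used here. Neighbouring segments share cells at their borders because the layers curve, and in bulk tissue fewer cells of a type and less RNA per cell cannot be told apart.

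Transcription between genes yields several kinds of RNA. Many long intergenic noncoding RNAs (lincRNAs) are spliced and polyadenylated like messenger RNAs, and most are weakly expressed. Other intergenic models are distal exons of neighbouring genes, divergent transcripts that start at the promoter of a gene on the opposite strand, or genes that an annotation release had not yet listed.

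The tables held no fragment counts. Depth was therefore estimated, by dividing coverage by FPKM, at 31620000 fragments in A, the lowest, to 75780000 in B2, the highest. The same sequenced length per fragment was taken for every library. Part of sample F had longer reads, and their effect on its estimate was not tested. Library A stood apart, with 257707 de novo loci listed against 93682 to 177155 in the others. Summed markers of layers 4, 5, 6 and 6b peaked in B, C, E and F, although Foxp2 of layer 6 was at 13.2 in E and 13.9 in F. Cux1 and Cux2, of layers 2 to 4, were highest in B1, at 38.1 and 43.5 FPKM, against 33.4 and 37.9 in A. The summed FPKM of 12 oligodendrocyte genes was 344 in A and 13001 in F. The choroid plexus gene Ttr was at 199 FPKM in F and 25.4 in A, and 4 meningeal genes, almost all of it Ptgds, summed to 1741 in A and to 75.8 to 271 elsewhere. Segments other than B had 1 library each, so values from them have no replicate error.

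Most of the 815 loci were simple models. In 624 loci (76.6%) no model had more than 2 exons, and 40 loci had a model of 5 or more. They held 7075 models in all, of which 1760 were spliced, with a median of 6 models per locus. The median locus spanned 5.80 kb, from 0.163 kb to 452 kb, and its longest model had a median length of 950 nt. The percent of FPKM in spliced models is the mean over the 7 libraries of the percent in each. Its median over loci was 23.6%, and in 225 loci it was 50% or more. The FPKM of a locus thus came mostly from unspliced models of the same strand and place, and values of spliced models alone are given beside it where they bear on a result. A spliced model was above 0 in all 7 libraries in 308 loci. The cDNA was made without strand marking, so the strand of a locus is that of its spliced models, and unspliced models there could hold reads of the other strand.

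The position of the loci could be compared with genes for 771 of the 815, since the other 44 lay on unplaced contigs without any listed gene. The nearest listed gene was 15 bp to 1166 kb away, with a median of 17.1 kb. Within 1 kb of a gene were 113 loci, 124 lay at 1 to 5 kb, 321 at 5 to 50 kb, and 213 at 50 kb or more. Orientation was known for 666 loci. Of these, 215 stood head to head with the nearest gene, that is on the opposite strand with both 5′ ends facing, 168 lay downstream of it on the same strand, 144 upstream of it on the same strand, and 139 tail to tail. Within 1 kb, 62 of the 105 loci with known orientation were head to head, against 14 downstream, 15 upstream and 14 tail to tail. The histogram of distances shows how many pairs below 1 kb were head to head.

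**Figure D1:**
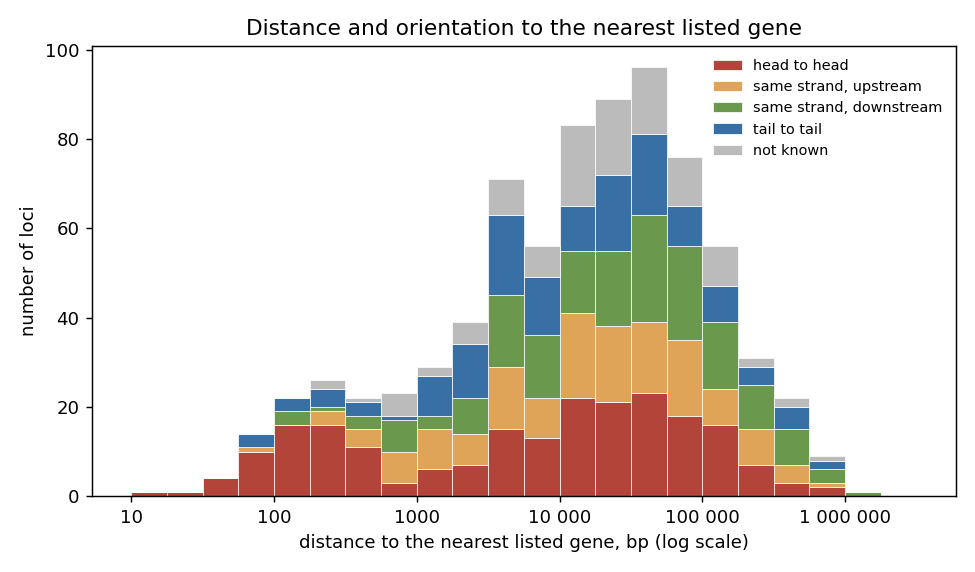
Distance in bp on a log scale (x axis) from each of the 771 placed loci to the nearest listed Ensembl gene, with the number of loci (y axis) stacked by orientation. Head-to-head pairs make up 62 of the 113 loci under 1 kb, and the median over all loci is 17.1 kb.

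The loci nearest to a gene were both divergent. XLOC_1033399 (chr12:103206308-103214193, minus strand, mm9) began 15 bp from Cpsf2, a subunit of the complex that cleaves messenger RNAs for polyadenylation, and XLOC_815255 (chr9:72887483-72890594, plus strand, mm9) began 24 bp from Pigb, an enzyme of glycosylphosphatidylinositol anchor synthesis. XLOC_242227 (chr5:144855767-144861258, minus strand, mm9) began 46 bp from Lmtk2, a membrane kinase, and was chosen after its values were seen. The regions between such pairs are shown as the promoter windows of the neighbouring genes, because they are where the divergent transcripts would start. Each window runs from 250 bases before to 50 bases after the start of the gene in RefSeq on GRCm38.p6, 5′ to 3′ on the strand of the gene, with CG dinucleotides in capitals. The build differs from that of the loci, so no position of a locus was placed on it.
Cpsf2, chr12:101975724-101976023, plus strand: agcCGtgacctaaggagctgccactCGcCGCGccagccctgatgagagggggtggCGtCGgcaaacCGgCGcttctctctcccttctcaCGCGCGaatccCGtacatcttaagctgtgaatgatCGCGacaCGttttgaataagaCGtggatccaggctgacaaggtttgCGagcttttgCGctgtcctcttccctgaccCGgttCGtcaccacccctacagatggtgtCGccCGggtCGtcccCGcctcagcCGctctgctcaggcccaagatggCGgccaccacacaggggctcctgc
Pigb, chr9:73039650-73039949, minus strand: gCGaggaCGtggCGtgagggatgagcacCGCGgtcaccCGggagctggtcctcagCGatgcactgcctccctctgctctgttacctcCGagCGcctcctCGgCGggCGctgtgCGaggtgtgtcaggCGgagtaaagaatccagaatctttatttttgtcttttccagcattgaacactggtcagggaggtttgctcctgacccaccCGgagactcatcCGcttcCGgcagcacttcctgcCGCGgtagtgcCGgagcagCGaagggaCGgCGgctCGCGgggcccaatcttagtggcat
Lmtk2, chr5:144100111-144100410, plus strand: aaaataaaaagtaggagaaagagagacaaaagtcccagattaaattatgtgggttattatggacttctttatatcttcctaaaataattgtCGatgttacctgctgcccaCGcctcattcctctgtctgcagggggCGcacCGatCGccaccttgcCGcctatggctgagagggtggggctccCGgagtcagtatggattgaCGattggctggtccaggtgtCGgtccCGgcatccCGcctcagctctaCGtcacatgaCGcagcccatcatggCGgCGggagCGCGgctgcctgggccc
The windows held 26, 25 and 17 CG dinucleotides. Of the 32851 windows in the RefSeq table, 16.9% held at least as many as Cpsf2, 18.4% at least as many as Pigb and 31.4% at least as many as Lmtk2. For the 62 head-to-head neighbours within 1 kb, 46 genes had 61 windows, with a median of 24 CG and 72.1% of windows at 20 or more. For the 43 other neighbours within 1 kb, 28 genes had 35 windows, with a median of 19 and 45.7% at 20 or more. Over all windows the median was 7 CG, and 26.5% held 20 or more. The letters TATAAA, searched on both strands, were in 13.1% of the head-to-head windows, in 8.57% of the others and in 13.6% of all windows.

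These divergent loci did not all share 1 order of levels. XLOC_1033399, all of whose FPKM was in spliced models, was at 15.7 (A), 24.7 (B1), 29.1 (B2), 26.9 (C), 46.4 (D), 19.8 (E) and 24.9 FPKM (F). It was highest in D and above Cpsf2 itself (8.29 to 12.5 FPKM) in every library. XLOC_815255 was at 12.6 (A), 5.22 (B1), 11.99 (B2), 14.4 (C), 6.63 (D), 15.8 (E) and 14.9 FPKM (F), against at most 1.961 for Pigb. B1 differed more from B2 than any other library did, and its spliced model was at 0 in 4 of the 7 libraries. XLOC_242227 was at 5.68 (A), 4.87 (B1), 4.78 (B2), 2.43 (C), 1.61 (D), 1.61 (E) and 0.625 FPKM (F). B1 and B2 were close and the level was lowest in F, but its spliced model was at 0 in A and highest in B2 (2.28). XLOC_1164449, 66 bp from Gabrd, the delta subunit of the GABA-A receptor, was at 6.22 (A), 3.54 (B1), 3.07 (B2), 1.94 (C), 1.67 (D), 1.31 (E) and 0.971 FPKM (F). Gabrd took the same order, from 73.6 in A to 21.0 in F. Spliced models carried 16.4% of the FPKM of XLOC_1164449 and did not take this order, at 0.391 in A, 0 in B1 and E and 0.620 in F, their highest. This locus was chosen after its values were seen. Whether unspliced models of these loci held reads of the neighbouring gene, in cDNA without strand marking, was not tested.

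Most of the loci were weakly expressed. The mean FPKM over the 7 libraries had a median of 1.39, against 2.74 over the 37841 de novo loci above 0 in all libraries and 3.95 over the Ensembl genes above 0 in all. It ran from 0.104 to 791, with 506 loci at 1 FPKM or more and 54 at 10 or more. At the estimated depth the median locus rested on 53.9 fragments per library.

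The 5 loci with the highest mean were 3 on placed chromosomes and 2 on unplaced contigs. XLOC_381357 (chr19:5796048-5802765, minus strand), with a longest model of 6718 nt, was at 1201 (A), 600 (B1), 1177 (B2), 820 (C), 549 (D), 603 (E) and 586 FPKM (F). A and B2 were high together, and B1 was near the deep segments. Spliced models carried 9.55% of the FPKM of XLOC_381357, averaged over the libraries. A later annotation, GENCODE M21, lists 2 long noncoding genes on the same strand between its neighbours. XLOC_381358 (chr19:5842228-5845553, minus strand) lay 2954 bp head to head from Frmd8os and was at 8.96 (A), 5.27 (B1), 8.60 (B2), 7.64 (C), 7.40 (D), 10.7 (E) and 35.1 FPKM (F). It was chosen after its values were seen, and F alone stood apart.

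XLOC_1327587, on the unplaced part of chromosome 13, was higher in each deeper segment. It was at 36.3 (A), 79.7 (B1), 91.4 (B2), 122 (C), 143 (D), 177 (E) and 203 FPKM (F). No library was out of order, and the intervals of A and F did not overlap. Its longest model by exons had 12, and spliced models carried 82.5% of its FPKM, averaged over the libraries. XLOC_1327948, on the unplaced part of chromosome 1, was lower in A than elsewhere, at 21.3 FPKM in A and at 41.0 to 54.6 in the other 6 libraries. Whether these loci overlap genes could not be checked on contigs without listed genes.

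XLOC_380148 (chr19:3205643-3205969, minus strand), 55.0 kb from Ighmbp2, was at 167 FPKM in A and 28.0 to 56.1 in the others. Its only model was 190 nt long, near the mean inserts of the libraries. These were 164 nt in A, its highest library, and 239 nt in B1, its lowest. The part of this short length in its levels was not tested. XLOC_886670 (chr3:88010743-88033996, plus strand), with 8 exons in its longest model and neighbours ENSMUSG00000086082 and Tsacc, was highest in A and lowest in F. It was at 110 (A), 40.8 (B1), 55.2 (B2), 33.0 (C), 31.6 (D), 25.9 (E) and 24.8 FPKM (F), with 50.5% of its FPKM, averaged over the libraries, in spliced models. Both were highest in A.

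**Figure D2:**
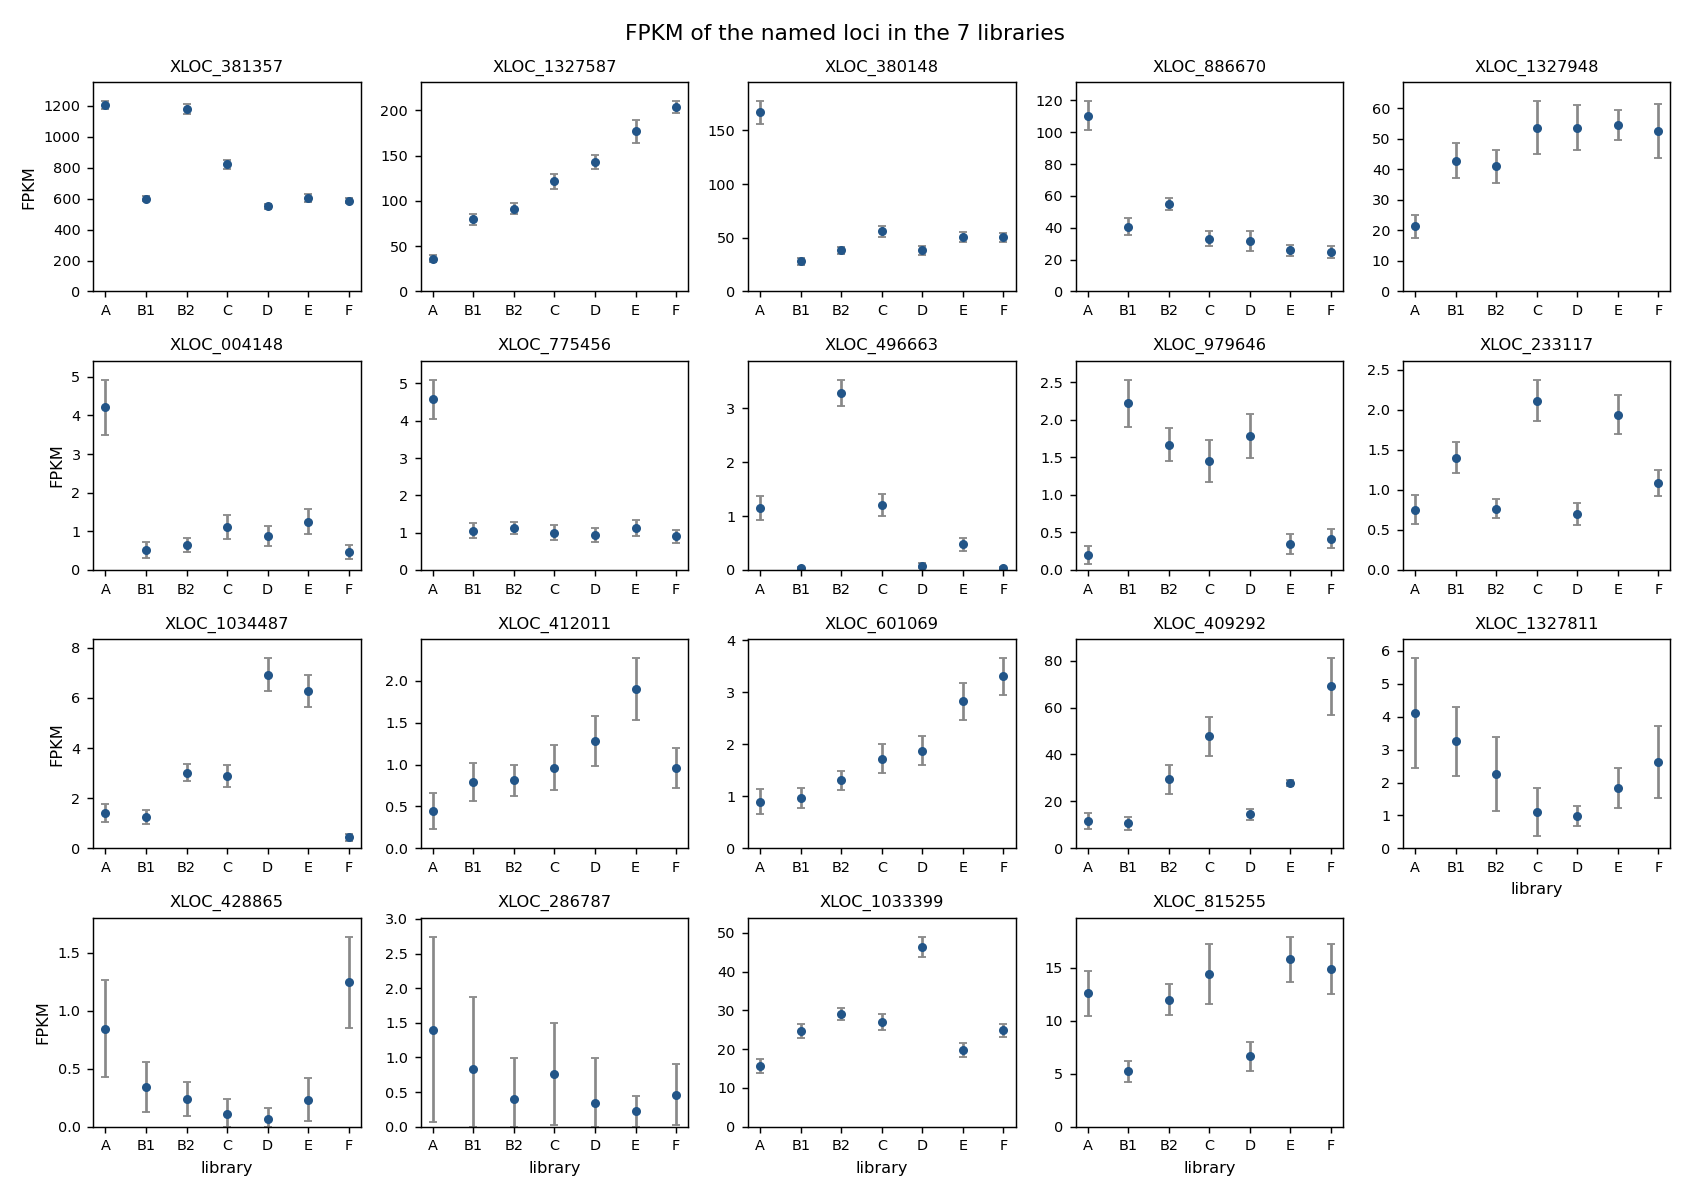
FPKM (y axis, linear from 0) of 19 loci in the 7 libraries (x axis), 1 panel per locus. Points are the deposited values and bars the wider of the deposited 95% interval and the counting error of the estimated fragments. XLOC_1327587 runs from 36.3 in A to 203 in F, and XLOC_496663 is at 0.0287 in B1 and 3.28 in B2.

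The loci with the most exons were XLOC_409292 and XLOC_1327811. XLOC_409292 (chr8:36828496-36881104, plus strand), between Mfhas1 and Cldn23, had a model of 33 exons, and GENCODE M21 lists Gm35021 and Gm19410 on the same strand between these neighbours. It was at 11.7 (A), 10.7 (B1), 29.4 (B2), 47.7 (C), 14.5 (D), 28.0 (E) and 69.0 FPKM (F). B1 and B2 differed by a factor of 2.76, as far apart as several segments. XLOC_1327811, on the unplaced part of chromosome 17, had a model of 16 exons and was at 0.985 to 4.11 FPKM.

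A later annotation lists genes in many of the gaps that held the loci. Both neighbours were found in GENCODE M21 for 759 loci. Between the same neighbours and on the same strand, M21 lists at least 1 long noncoding gene for 366 of these, at least 1 protein-coding gene for 90, and no gene at all for 263. Since builds differ, a gene between the same neighbours need not be the locus itself. The neighbours can also lie far apart in M21, which lists 375 genes on the same strand between those of XLOC_716592. These counts can therefore be too high. XLOC_043996 (chr6:4697316-4710516, plus strand) stood 111 bp head to head from Sgce, in a gap for which M21 lists Peg10, an imprinted gene derived from a retrotransposon. It was at 2.29 (A), 5.93 (B1), 6.05 (B2), 5.19 (C), 5.49 (D), 7.40 (E) and 7.75 FPKM (F), and Sgce was at 6.57 in A and 18.1 in F. XLOC_656810 (chr15:32170338-32174407, minus strand), 160 bp head to head from Sema5a and in a gap that holds the small nucleolar RNA host gene Snhg18, was at 8.19 (A), 0.331 (B1), 0.667 (B2), 0.442 (C), 0.945 (D), 1.53 (E) and 4.41 FPKM (F). It was high at both ends of the cortex, while Sema5a was at 0.872 in A and 16.6 in F.

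The imprinted cluster on chromosome 12 that holds Mirg and Rian contributed 2 loci on opposite strands. XLOC_1017801 (chr12:110892373-110900183, plus strand), between DQ267100 and Mir1197, was at 46.0 (A), 23.8 (B1), 38.5 (B2), 63.2 (C), 74.9 (D), 42.8 (E) and 30.1 FPKM (F), and 82.3% of its FPKM, averaged over the libraries, was in spliced models. XLOC_1034487 (chr12:110887967-110890834, minus strand), 68 bp from DQ267100, was at 1.43 (A), 1.25 (B1), 3.01 (B2), 2.87 (C), 6.93 (D), 6.28 (E) and 0.435 FPKM (F). Both were highest in D. The interval of XLOC_1017801 in D overlapped those in A, B2, C, E and F, and missed only that in B1. Those in A, B1, B2, E and F started at 0. The spliced model of XLOC_1034487 was at 0 in B2, D, E and F and at 0.712 to 0.958 in A, B1 and C, so its high values in D and E were in unspliced models. Among the loci of at least 0.5 FPKM with intervals of at most 50% of the mean, its share was among the largest in D (34.5%) and in E (31.3%). The loci of Sgce, Sema5a and chromosome 12 other than XLOC_1034487 were chosen after their values were seen.

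Segment A held the highest FPKM of 340 of the 815 loci (41.7%), F of 142 (17.4%), E of 109 (13.4%), C of 100 (12.3%), D of 66 (8.10%) and B of 58 (7.12%). Without B1 the figure for B was 11.2%. The same count over all 37841 de novo loci above 0 in all libraries gave 46.3% in A and 19.4% in F, and over 18397 Ensembl genes 25.6% in A and 30.5% in F. The median share of a locus, its FPKM in a segment over the sum of the 6, was 20.7% (A), 13.5% (B), 14.5% (C), 13.2% (D), 15.1% (E) and 13.8% (F). The quartiles in A were 10.05% and 32.7%, so the share there varied widely between loci.

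The lead of A was smaller when spliced models alone were counted. In 327 loci the spliced models alone were above 0 in every segment. By all models, A was highest in 112 of these (34.3%), and by spliced models alone in 79 (24.2%), with F highest in 69 (21.1%). The median share in A of these loci was 17.6% by all models and 12.7% by spliced models. Among the 80 loci whose widest interval was at most 50% of the mean, the median share in A was 15.0%, and A was still highest in 36.25%, against 16.25% for E, 13.75% for B and 7.5% for F. Library A had the lowest depth, the most listed loci and the shortest mean insert (164 nt, against 172 to 239 nt in the others), and their part in this result was not tested.

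**Figure D3:**
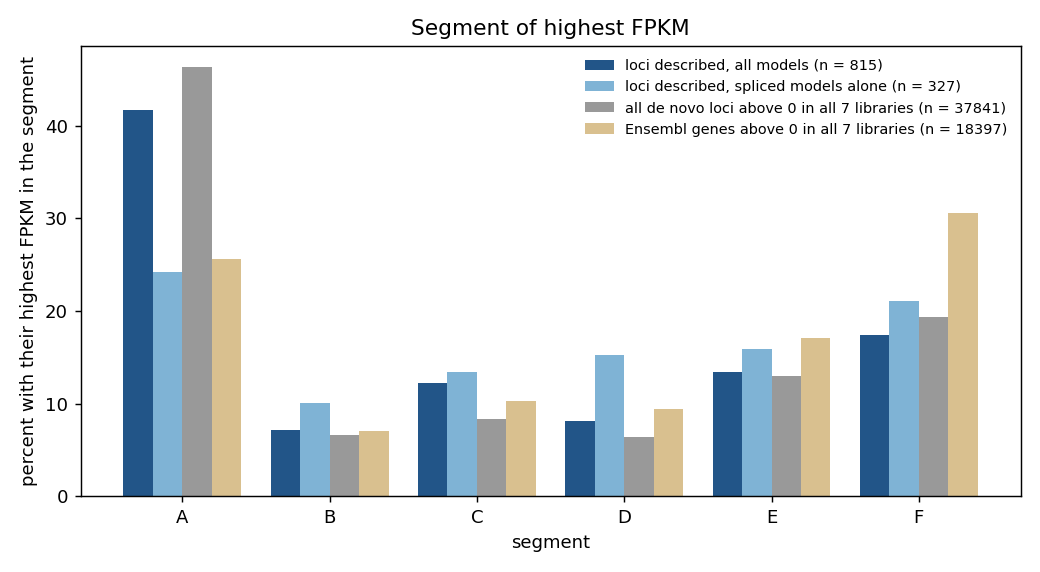
Percent of loci or genes (y axis, from 0) with their highest FPKM in each segment (x axis). A leads for the 815 loci at 41.7% and for all de novo loci at 46.3%. By spliced models alone A holds 24.2% of the 327 loci counted, against 34.3% of the same 327 by all models (not drawn).

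Loci with a large share in 1 segment were taken from loci that averaged 0.5 FPKM or more and had intervals of at most 50% of the mean. For segment A these were XLOC_004148 and XLOC_775456. XLOC_004148 (chr18:25912868-25914795, plus strand), 209 bp head to head from Celf4, a neuronal RNA-binding protein, was at 4.21 (A), 0.517 (B1), 0.656 (B2), 1.11 (C), 0.878 (D), 1.25 (E) and 0.462 FPKM (F), a share of 49.6% in A. Its spliced model was above 0 only in E, at 0.214 FPKM. XLOC_775456 (chr16:44719234-44724009, minus strand), 404 bp head to head from Nepro, was at 4.58 in A and between 0.899 and 1.13 in the other 6 libraries, a share of 47.5%. Its spliced models were at 1.07 in A and 0.505 to 1.13 elsewhere, so the step at A was in unspliced models.

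For segment B the rule named XLOC_496663 and XLOC_979646. XLOC_496663 (chr14:120272029-120275488, minus strand), 3212 bp from Hs6st3, a heparan sulfate sulfotransferase, was at 1.15 (A), 0.0287 (B1), 3.28 (B2), 1.21 (C), 0.0787 (D), 0.477 (E) and 0.0297 FPKM (F). The 2 libraries of layer 4 were the highest and the lowest of the 7, at an estimated 679 and 3.88 fragments, so the share in B rested on B2 alone. XLOC_979646 (chr17:69179028-69187012, minus strand), between ENSMUSG00000069849 and Epb41l3, was at 0.199 (A), 2.22 (B1), 1.67 (B2), 1.45 (C), 1.78 (D), 0.350 (E) and 0.417 FPKM (F). By all models its 4 libraries of segments B, C and D were all above the other 3, with no overlap of their intervals. Spliced models alone ranged from 1.20 to 1.70 FPKM over B1, C and D. They were at 0.487 for B2, close to F (0.417), and at 0 for both A and E. The lead of B2 over F was thus mostly in unspliced models.

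XLOC_233117 (chr5:108794487-108797483, minus strand), 1393 bp from the lincRNA gene Gm10419, had the largest share in C (27.6%), at 0.752 (A), 1.40 (B1), 0.766 (B2), 2.12 (C), 0.697 (D), 1.94 (E) and 1.08 FPKM (F). It followed no order of depth. XLOC_412011 (chr8:72078471-72088661, plus strand), 45.9 kb from Zfp868, was highest in E, at 0.445 (A), 0.793 (B1), 0.813 (B2), 0.961 (C), 1.28 (D), 1.90 (E) and 0.959 FPKM (F). XLOC_601069 (chr10:82048129-82058741, minus strand), 23.9 kb from 1190007I07Rik, was higher in each deeper library, at 0.896 (A), 0.966 (B1), 1.31 (B2), 1.72 (C), 1.88 (D), 2.82 (E) and 3.30 FPKM (F), and all of its FPKM was in its spliced model.

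Whether the loci changed with depth in the cortex was tested as a linear and quadratic trend over the positions of the segments, fitted to log2(FPKM + 0.1) by limma and read by its moderated F-test. The fit covered 193859 de novo loci with a mean of at least 0.1 FPKM, and Benjamini-Hochberg adjusted p-values were read at 0.05. By this test 0 of the 815 loci were called (smallest adjusted p 0.125), and of all loci fitted 0% were called. At an unadjusted p under 0.05 were 113 of the 815 loci (13.9%), against 31.4% of all loci fitted. The loci fitted include many at 0 in some libraries, which the rule kept out of the 815, so these shares are of unlike sets. On simulated data the fit recovered 0% of loci at slopes of 0.8 and -0.8 log2 units per segment. It recovered 54% at 1.6, 32% at -1.6, 92% at 3.2 and 98% at -3.2, so it had little power even for steep trends. Most simulated loci had no trend, whereas 31.4% of the loci fitted had an unadjusted p under 0.05 by the F-test. Recovery in the data may therefore differ.

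The fit over all loci included many weak models seen in few libraries, and 3 other fits were added after the data had been seen. Over the 18967 spliced loci, 72 of the 815 were called, 8.83% against 6.55% of all loci fitted. Of these 35 were higher in deep segments (4.29% against 4.52%) and 37 in superficial ones (4.54% against 2.04%). Over the 37389 loci above 0 in all 7 libraries, 47 of 813 were called, 5.78% against 3.92%, with 22 higher in deep segments (2.71% against 1.17%) and 25 in superficial ones (3.08% against 2.75%). With the FPKM of spliced models alone, 73 of 610 were called, 11.97% against 11.2%, with 46 deep (7.54% against 9.43%) and 27 superficial (4.43% against 1.73%). In these 3 fits, in this order, 33.6%, 33.5% and 36.9% of the loci had an unadjusted p under 0.05 by the F-test. Of all loci fitted, 33.4%, 31.5% and 38.6% did. With a pseudocount of 1 over all loci, 43 were called, 5.28% against 1.87%, with 25 deep (3.07% against 0.431%) and 18 superficial (2.21% against 1.44%). With B1 and B2 averaged, 13 were called, 1.595% against 8.79%, with 4 deep (0.491% against 0.286%) and 9 superficial (1.104% against 8.51%). With the 6 segments as factors, only the difference between B1 and B2 was left as error, so calls of that fit are not read here. The share called was thus above that of all loci in 4 of these fits and below it with B1 and B2 averaged. It varied by direction, and these differences were not tested. All 3 fits called 17 loci, 10 with a slope above 0 and 7 below 0. Log2 slopes below are per segment, with their standard errors. The adjusted p-values beside them are of the F-test of both trend terms in the limma fit over spliced loci, not of the slope alone.

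Of the 17 loci, the slope was largest at XLOC_002350 (chr18:16180049-16194779, plus strand), a model of 5 exons 31.8 kb from Gm4835. It was at 3.04 (A), 1.82 (B1), 2.13 (B2), 3.09 (C), 13.4 (D), 32.2 (E) and 44.4 FPKM (F), a slope of 0.99 ± 0.14 (adjusted p 0.038). B1 and B2 were close, and the step lay between C and D. Its spliced models were at 0.0859 in A and 8.01 in E and were at 6.45 in F. Just outside the rule, XLOC_014969 (chr18:16200110-16273952), in the same region, was at 0 in B1 and at 10.3 in E and 7.98 in F.

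XLOC_301616 (chr1:184218157-184233429, plus strand), 5221 bp head to head from Degs1, a sphingolipid desaturase, was at 3.60 (A), 2.61 (B1), 3.66 (B2), 5.50 (C), 6.65 (D), 10.7 (E) and 35.7 FPKM (F) (slope 0.65 ± 0.076, adjusted p 0.035). F stood above the others, and Degs1 was at 11.8 in A and 46.9 in F. XLOC_483269 (chr14:10334617-10361897, minus strand), 44.0 kb downstream of Fhit, a diadenosine triphosphate hydrolase, rose from 0.0735 in A to 3.61 in F (slope 0.87 ± 0.12, adjusted p 0.039). XLOC_831432 (chr9:43313913-43329093, minus strand), between Trim29 and Nectin1, was at 0.120 to 0.702 in A to D and at 4.39 in F (slope 0.81 ± 0.11, adjusted p 0.036). XLOC_489982 (chr14:59935132-59965408, minus strand), between Phf11a and Phf11d in a gap for which M21 lists Phf11b, was at 1.58 (A), 3.15 (B1), 4.08 (B2), 6.81 (C), 6.91 (D), 8.71 (E) and 13.5 FPKM (F) (slope 0.53 ± 0.073, adjusted p 0.037).

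XLOC_656254 and XLOC_773123 were highest in E instead, at 8.53 and 5.66 FPKM, with 5.71 and 2.85 in F and 0.792 and 0.284 in A. The spliced models of XLOC_656254 were instead highest in F, at 2.53 against 1.80 in E. XLOC_844975, XLOC_534797 and XLOC_428865 bent rather than rose: each was higher in A than in B, C and D and highest in F, at 1.20, 2.12 and 1.25 FPKM. XLOC_428865 (chr8:51897002-52001685, minus strand), 1166 kb from Gm9892, was the locus farthest from any gene, with an estimated 1.74 fragments in D. XLOC_286787 (chr1:76491036-76498024, plus strand), second in distance at 857 kb, was at 0.225 to 1.40 FPKM with intervals that all overlapped. Oligodendrocyte genes, such as Mbp, the myelin basic protein, at 172 FPKM in A and 6954 in F, were also highest in F. Mbp was lowest in A. The summed layer 6b markers (10.9 in A and 373 in F) and Ttr were highest in F too. The layer 6b sum was at 3.91 to 6.76 in B, C and D. Ttr was at 25.4 in A and at 1.07 to 7.70 in B, C and D. The part of any of these genes or their cells in the loci that peaked in F was not tested.

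The 7 loci with negative slopes were all highest in A by all models. By spliced models alone XLOC_282326 was highest in B2, at 1.31 against 1.01 in A, and the others were highest in A. Of 4 meningeal genes, Ptgds (1733 FPKM in A), Dcn and Col1a1 were also highest in A and Lum was not, and their part in these loci was not tested. XLOC_1161502 (chr4:138055092-138084568, plus strand), between Camk2n1 and Vwa5b1, was at 27.2 (A), 2.24 (B1), 7.16 (B2), 1.68 (C), 0.817 (D), 0.884 (E) and 0.628 FPKM (F) (slope -0.91 ± 0.14, adjusted p 0.037). B2 was 3.19 times B1, on the side of A, and spliced models carried 9.41% of the FPKM, averaged over the libraries. XLOC_150535 (chr7:72591140-72608057, minus strand), 75.0 kb upstream of Tjp1, was at 35.8 in A, 4.93 in B1, 11.8 in B2 and 0.953 to 3.26 in C to F (slope -0.85 ± 0.15, adjusted p 0.048). XLOC_282326 (chr1:55948615-55973706, plus strand), 140.0 kb downstream of Plcl1, was at 9.44 (A), 4.71 (B1), 6.04 (B2), 3.40 (C), 1.11 (D), 1.41 (E) and 1.22 FPKM (F) (slope -0.61 ± 0.087, adjusted p 0.038). XLOC_1329246, on an unplaced contig, had a single model and fell from 5.91 in A through 4.19 and 3.97 in B1 and B2 to 0.741 in E and 0.979 in F (slope -0.58 ± 0.074, adjusted p 0.036). XLOC_289020, XLOC_959555 and XLOC_141069 were at 8.75, 3.74 and 1.28 in A and at 0.401, 0.464 and 0.0716 in F. Since a call with spliced models alone was part of how these 17 loci were chosen, their slopes there are no further support.

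**Figure D4:**
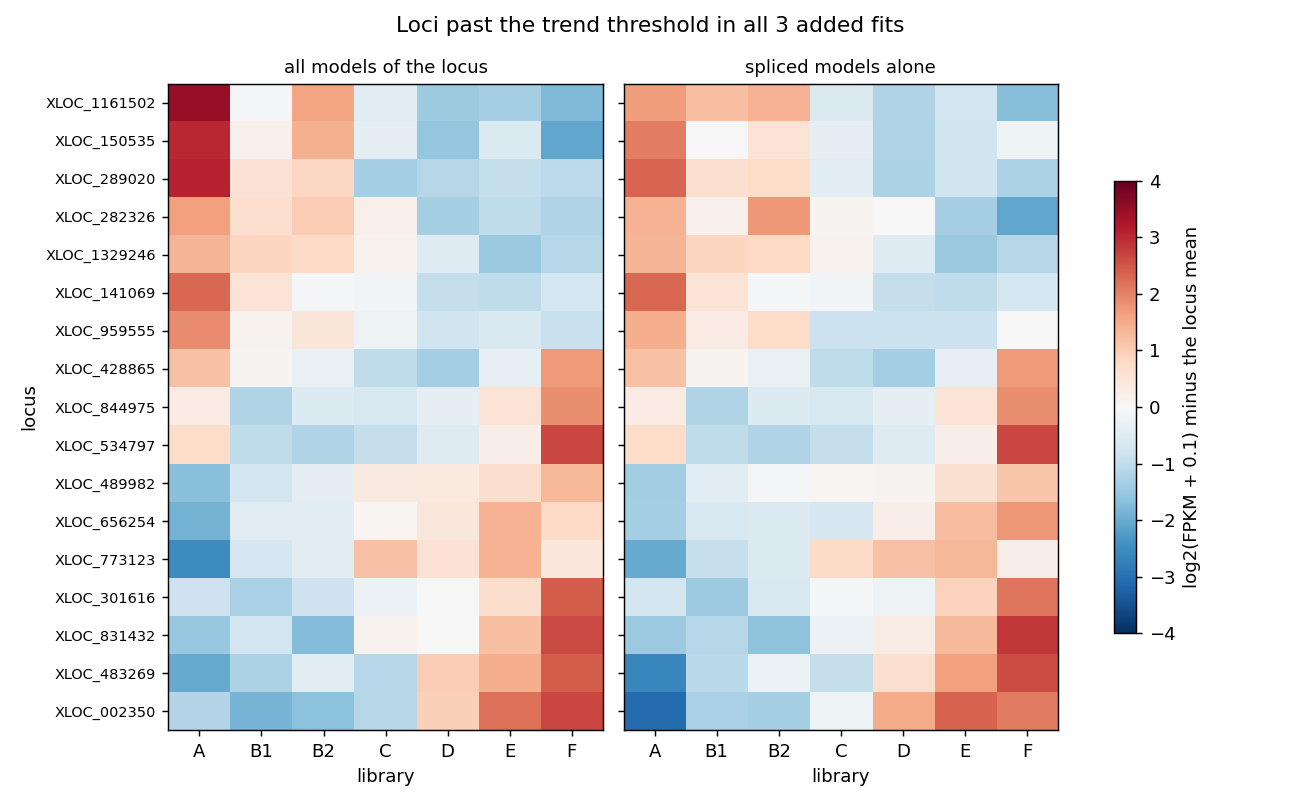
Colour gives log2(FPKM + 0.1) minus the mean of the locus for 17 loci (rows) in the 7 libraries (columns), by all models (left) and by spliced models alone (right). XLOC_002350 at the bottom rises from A to F, and XLOC_1161502 at the top falls.

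The spread between B1 and B2 shows how far libraries of 1 segment differed. Over the 815 loci the size of the log2 difference between B2 and B1 was 0.76 at the median and 2.65 at the 95th percentile, against 0.36 at the median for Ensembl genes. B2 was higher in 547 loci, and the median ratio of B2 to B1 over all 815 was 1.32. Between F and A the median size was 1.41. The deposited 95% intervals of A and F did not overlap in 370 loci (45.4%), 244 higher in A and 126 in F. Of all de novo loci above 0 in all libraries, 58.4% did not overlap, 35.2% higher in A and 23.1% in F. Those of B1 and B2 did not overlap in 205 loci (25.2%), 54 higher in B1 and 151 in B2, and of all these de novo loci 43.4% did not, 12.4% higher in B1 and 31.0% in B2. Both shares were below those of all loci. A widest interval of at most 50% of the mean was found in 9.82% of the 815 loci, against 28.9% of all these de novo loci. The median of the estimated fragments per library was 53.9 against 100. The part of these wider intervals in the lower shares was not tested. Over the 21 pairs of libraries the count was lowest for C and D, at 123 loci (15.1%). This pair was also the lowest over all de novo loci above 0 in all libraries, at 23.4%.

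These intervals cover error within a library and not the spread between mice. Of 5705 values, 1308 (22.9%) had an interval narrower than the counting error of the estimated fragments, and among the 80 loci with narrow intervals it was 323 of 560 (57.7%). With the wider of the 2 errors, 347 loci did not overlap between A and F, against 53.5% of all loci, and 181 between B1 and B2, against 38.1%. The plot of both ratios shows that differences between B1 and B2 reached the size of those between A and F in many loci.

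**Figure D5:**
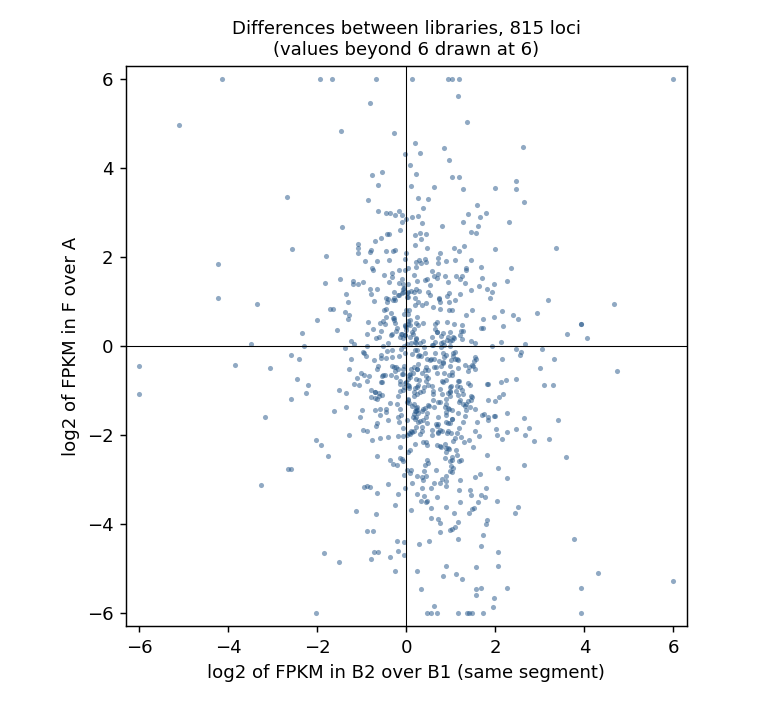
Log2 ratio of FPKM in F to A (y axis) against that in B2 to B1 (x axis) for 815 loci, 1 point each, with 4 values on the x axis and 19 on the y axis beyond 6 drawn at 6. Points lie to the right of 0 in 547 loci, and the spread on the y axis (median size 1.41) is wider than on the x axis (0.76).

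The loci and their nearest genes were weakly related. Spearman's correlation over the 7 libraries between a locus and its nearest listed gene had a median of 0.071 over 771 loci, with quartiles of -0.29 and 0.45, and was above 0 in 414 (53.7%). For 18397 Ensembl genes and their own nearest gene the median was 0.18, and 60.0% were above 0. Head-to-head pairs within 1 kb had a median of 0.018, with 31 of 62 above 0. The 7 points of each pair share libraries and depth, so no p is given. The nearest gene was protein-coding for 541 loci, a processed pseudogene for 53 and a lincRNA gene for 25, and 101 nearest genes had no entry in M21.

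Some gaps held several loci. On the placed chromosomes 86 of the 667 gaps with loci, counted by strand, held 2 or more. These held 190 loci, which are not independent of each other. Whether the lengths of the gaps alone would give as many such gaps was not tested. The fullest held 6 loci of the minus strand between 2900079G21Rik and Pdcd6ip (chr9:112980099-113431566), with means of 0.309 to 1.72 FPKM. XLOC_845541 of these was highest in C (3.26 FPKM), XLOC_845690 in F (3.01) and XLOC_845674 in A (0.700), so the loci of 1 gap did not share a peak. Between Epha4, a receptor of axon guidance, and Sgpp2, 3 loci of the plus strand were at means of 1.38, 2.21 and 4.50 FPKM.

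At the edge of the rule, XLOC_814341 and XLOC_605575 entered with values so close to 0 (5.3e-13 and 1.1e-12 FPKM) that they stand for no fragment, and 22 loci had a smallest value under 0.01 FPKM. XLOC_411773 stayed outside with 0 in A and 5.21 to 7.31 FPKM in the other libraries. In all, 147 spliced loci between genes were at 0 in exactly 1 library, 50 of them in F and 34 in A.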

How the data were processed

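Polyadenylated RNA of 7 S1 libraries was sequenced from both ends, and per the labels part of sample F had longer reads. Per the submitters' processing notes the authors used TopHat 1.0.13 and Cufflinks 0.8.3 on mm9. The FPKM values that the authors deposited for Ensembl genes and de novo loci are normalized for model length and mapped fragments, with 95% intervals, and loci not listed in a library were set to 0. The coverage that the authors deposited is fold read coverage of a model and served only to estimate depth.

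Loci were selected in Python 3.11.15 from positions, exon numbers and FPKM. Several lines of a locus in a library were summed. Trends were fitted with limma 3.58.1 in R 4.3.3 on log2(FPKM + 0.1) and tested on simulated data. A fold change on this scale understates changes of weak loci. A locus counts as higher in deep segments by the sign of its linear term.

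The members and lists were chosen with earlier results of these data known. Named were the 5 loci with the highest mean, the 2 with the largest share per segment (mean at least 0.5 FPKM, widest interval at most 50% of the mean), called loci with the largest slopes, of which there were 0, the 2 with the most exons, the 2 farthest from and the 2 nearest to a gene, and those at the edge of the rule. Loci called in 3 added fits and loci said to be so were named after their values were seen. Counting error was 95%, from fragments estimated by FPKM, the longest model and depth. GENCODE M21 was used by identifier and RefSeq GRCm38.p6 for promoters. No genome sequence of mm9 was used here. Some neighbouring genes are not reported here.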

Additional observations from a re-analysis of the deposited data

How the results depend on the processing

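No paired analysis was possible because only segment B had more than 1 library. The number of loci became 1866 with FPKM above 0 in at least 1 library, 534 without a listed gene within 5 kb, 213 within 50 kb, and 308 with a spliced model in all 7 libraries. The trend test called 0 loci in the fit over all loci and in each fit without 1 library. It called 43 (25 deep, 18 superficial) with a pseudocount of 1, 13 (4 and 9) with B1 and B2 averaged, 73 (46 and 27) with spliced models only, 47 (22 and 25) over loci above 0 in all 7 libraries, 72 (35 and 37) over spliced loci, and 57 with segments as factors (36.7% of all loci), and the cause was not tested. Nonoverlapping intervals fell to 194 (A and F) and 85 (B1 and B2) when widened 2 times. Without a gene within 5 kb they fell to 235 and 126, where only 534 loci were counted. The share over all de novo loci is not given for these settings, so these counts are no result about the loci in particular. With a median-of-ratios scaling the median share was 24.6% (A), 13.9% (C), 12.3% (D), 13.7% (E) and 12.03% (F). For the 80 loci with intervals of at most 50% of the mean it was 15.0% (A), 17.7% (B), 16.3% (C), 16.6% (D) and 14.2% (F), and the percent highest there was 36.25% in A, 13.75% in B, 13.75% in D and 7.5% in F. Without a gene within 5 kb the shares in A and F were 19.9% and 13.2%. With B1 or B2 left out B was highest in 11.2% or 6.87%, and the median share in E was 14.9% or 15.6%. Segment B is otherwise the mean of B1 and B2, and the effect of this averaging was not tested. The median correlation with the nearest gene was 0.068 by Pearson, 0.107 without a gene within 5 kb or after median-of-ratios scaling, 0.036 within 5 kb or for genes of at least 1 FPKM, and 0.0857 to 0.143 with 1 library left out, highest without A.

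Slopes of named loci reversed as follows, and the cause was not tested. With spliced models only they became 0.092 for XLOC_775456, -0.034 for XLOC_412011, 0.20 for XLOC_1327811 and -0.19 for XLOC_815255. With a pseudocount of 1 XLOC_1034487 became 0.046. With a median-of-ratios scaling XLOC_428865 became -0.022 and XLOC_1033399 -0.018. With 1 library left out, slopes ran from -0.24 to 0.14 for XLOC_380148, from -0.36 to 0.021 for XLOC_004148 and from -0.043 to 0.13 for XLOC_1033399, each reversed without A. They ran from -0.55 to 0.015 for XLOC_979646, from -0.20 to 0.60 for XLOC_1034487 and from -0.41 to 0.31 for XLOC_428865, each reversed without F, and XLOC_1034487 was also reversed without B2, at 0.012. Of the other alternatives for single loci, 189 kept direction and side of the threshold and 5 passed it.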
